A study of Mus musculus with 9 samples.

Results

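Aminoacyl-tRNA synthetases are the enzymes that attach each amino acid to its tRNA. Their genes were taken by symbol: a 1-letter amino acid code followed by "ars" (or "Ep" for the fused glutamate and proline enzyme), with an optional 1, 2, 3, a or b. This found 36 of the 16398 genes in the deposited table, and all 36 had enough counts to be tested. Symbols ending in 2 were read as mitochondrial (17 genes) and the rest as cytosolic (19 genes), of which Gars (glycine) and Kars (lysine) serve both compartments. The cytosolic glutamate and proline enzyme is listed as Eprs, a symbol the pattern does not take, and it is described with the related genes. The assay was mRNA sequencing of BV2 cells, an immortalised mouse microglial line, whose genotype in the labels is Nus1 knockdown or WT. The knockdown644 and knockdown878 groups each received a different siRNA against Nus1, and the NC group was their control, with 3 replicates in each of the 3 groups. Cells in all groups stayed with the RNAiMAX mixture for 24 h and in new medium for 24 h more, and RNA was taken at 48 h. The line stands in for microglia in culture only, the siRNA sequences were not used here, and the labels call the replicates biological without saying whether they came from separate transfections. The p-values reflect the variation among these libraries, which may be technical in part.

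Cytosolic synthetases charge the tRNAs used by ribosomes in the cytosol, and several of them (Iars, Lars, Mars1, Qars, Rars, Kars and Dars, with Eprs) sit together in a multisynthetase complex. The mitochondrial enzymes are also encoded in the nucleus and are imported to charge tRNAs made from mitochondrial DNA. Many cytosolic synthetase genes are known targets of ATF4, a transcription factor whose translation goes up when eIF2 kinases such as PERK sense ER stress. ATF4 with a C/EBP partner binds a composite DNA word, the C/EBP-ATF response element. Nus1 encodes a subunit of the enzyme that makes the dolichol backbone for protein N-glycosylation in the ER. Wars, the tryptophan enzyme, is in addition known in human cells as a gene induced by interferon gamma.

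Promoters, here 250 bases before to 50 after the RefSeq start of a gene in GRCm38.p6, were matched for 26 of the 36 members. The response element was searched as TGATGNAAT and its reverse complement ATTNCATCA, with no mismatch, and again 1 letter shorter as TGATGNAA or TTNCATCA, a form added after the values were known. The longer form was found in 3 members, among them Gars and Iars, and in 1.08% of the 27025 genes with a promoter (0.559% of the 9485 of these that were tested for expression). The shorter form, which every longer match also holds, was found in 5 members, these 3 with Yars and Tars, against 4.51% of all genes with a promoter and 2.89% of those tested. Windows of 30 bases around the words of 4 members are shown because they let the matches be compared, with the matching word in capitals and each strand read in the direction of the gene. Gars lies on the plus strand at chr6:55037960-55037989, Iars on the plus strand at chr13:49682126-49682155, Yars on the plus strand at chr4:129189896-129189925 and Tars on the minus strand at chr15:11399654-11399683.
Gars: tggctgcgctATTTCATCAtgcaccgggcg
Iars: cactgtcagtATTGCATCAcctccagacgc
Yars: cgagctcagcTGATGCAAcccgacgggact
Tars: aggagtcccgTTGCATCAgctggttagctg

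The first base of the word lay at position -31 from the start in Gars, -15 in Tars, 3 in Yars and 6 in Iars, counting the start as 0. In Gars, Iars and Tars the word read in the reverse orientation relative to the gene. The narrower word TGATGCAAT or ATTGCATCA was found in 2 members, among them Iars, and in 0.222% of all genes with a promoter. The whole 250 bases before the start are shown for Gars (chr6:55037751-55038000, plus strand), since it holds the 9-letter word upstream of the start and changed with each siRNA, as described further on.
Gars upstream: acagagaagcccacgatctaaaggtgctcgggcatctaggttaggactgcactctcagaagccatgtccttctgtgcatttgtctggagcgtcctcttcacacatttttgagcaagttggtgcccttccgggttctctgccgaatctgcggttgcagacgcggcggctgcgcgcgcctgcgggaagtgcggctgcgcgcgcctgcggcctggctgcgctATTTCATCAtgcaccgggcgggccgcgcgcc

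Nus1, the targeted gene, was at 3.94, 4.15 and 3.46 CPM in the knockdown644 libraries and at 8.01, 3.73 and 8.35 CPM in the knockdown878 libraries, against 51.4, 50.1 and 53.4 CPM in the NC libraries. CPM here is the estimated count scaled to a common library total after TMM scaling, a correction for differences in composition. Nus1 fell by 3.74 (log2) with siRNA 644 and fell by 2.94 with siRNA 878. The libraries held 19362292 to 20224686 counts. They differed in how counts depended on transcript length and GC content, and replicate 2 of knockdown878 stood farthest apart: relative to the average of all libraries, a doubling of length went with a log2 change of -0.22 in it, against 0.04 and 0.11 in the other knockdown878 libraries, -0.10 to 0.05 in knockdown644 and -0.03 to 0.12 in NC. For 10 points more GC content the log2 change was 0.39 in that library, against -0.09 and -0.21 in the other knockdown878 libraries. It was 0.21, -0.06 and 0.13 in knockdown644 and -0.17, -0.01 and -0.19 in NC, so GC dependence also differed between these groups. Of the 36 members, 22 were highest and 11 lowest in replicate 2 among the knockdown878 libraries. Of 12 microglia and macrophage markers all 12 were tested, and they moved both ways: 2 were called higher (Fcer1g and Trem2) and 2 lower (Aif1 and Cx3cr1) with 644, and 0 higher and 4 lower (Aif1, Cx3cr1, Cd68 and Itgam) with 878, with log2 fold changes of -2.65 to 0.85 with 644 and -3.0 to 0.65 with 878. Itgam was also called lower with 878 than with 644, and what part these shifts have in the results was not tested. Cd68 was at 1572 ± 62.0 CPM in knockdown644, 1272 ± 161 in knockdown878 and 1615 ± 62.2 in NC (SD, n = 3 each), while Tmem119 and P2ry12, markers of microglia in tissue, were at 3.04 CPM or less in each group's mean. Markers of neurons, astrocytes, oligodendrocytes, endothelial cells, fibroblasts and T cells averaged at most 2.29 CPM in any group.

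With both siRNAs many cytosolic synthetase genes were called higher, and few mitochondrial ones were. A gene is called when its Benjamini-Hochberg adjusted p from edgeR's quasi-likelihood test, over 11739 genes, is under 0.05. With siRNA 644, 9 of 19 cytosolic genes were called higher and 1 lower, with a median log2 fold change of 0.23, and 2 of 17 mitochondrial genes were called higher and 3 lower, with a median of -0.07. With siRNA 878, 11 of 19 cytosolic genes were called higher and 2 lower, with a median of 0.36, and 1 of 17 mitochondrial genes was called higher and 2 lower, with a median of -0.10. Across all tested genes, 16.6% were called higher and 15% lower with siRNA 644, and 16% higher and 15.5% lower with siRNA 878, with medians of -0.01 and 0.00. In a bulk sample less mRNA per cell and fewer cells of a kind cannot be told apart. The share of cytosolic members called higher was above the background with each siRNA, while the mitochondrial shares were near or below it in both directions.

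Both comparisons use the same NC libraries. Called higher with each siRNA were 9 members, all cytosolic (Wars, Aars, Sars, Gars, Rars, Nars, Lars, Iars and Yars), against 12.2% of all tested genes. Called lower with each were 3 members (Hars, Lars2 and Vars2), against 11% of all tested genes, and no member was called in opposite directions. The count of members called higher with 644 was 9 to 13 and with 878 10 to 13 when any of the 9 libraries was left out. Without knockdown878 replicate 2, 8 members gained a call with 644: Cars and Tars2 were then higher, and Dars, Kars, Mars1, Mars2, Nars2 and Vars lower. In that analysis 25.3% of all 11856 tested genes were higher and 25.3% lower with 644, and 20.4% higher and 20.3% lower with 878, so the members' counts there (13 higher and 10 lower with 644) stand against a larger background. The lower calls were less stable. With 644 they numbered 4, but 0 without knockdown644 replicate 3, 1 without knockdown644 replicate 1 or without NC replicate 1, 2 or 3, 2 without knockdown644 replicate 2 or knockdown878 replicate 1, and 10 without knockdown878 replicate 2. With 878 they numbered 4, but 7 without knockdown878 replicate 2 and 2 without any of NC replicates 1 to 3, knockdown644 replicates 1 and 3 or knockdown878 replicate 1. The shares over all tested genes moved too when a library was left out. They were 10.7% to 25.3% higher and 9.01% to 25.3% lower with 644. With 878 they were 10.7% to 20.4% higher and 10.0% to 20.3% lower.

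Wars (NCBI gene 22375, chromosome 12 from 108860030 to 108894175 in the deposited coordinates) changed the most. It was at 683, 589 and 651 CPM in knockdown644 and at 479.9, 603 and 458 CPM in knockdown878, against 189.5, 191 and 181 CPM in NC. Every knockdown library was far above every NC library, and the knockdown644 libraries lay above the knockdown878 libraries except that knockdown878 replicate 2 fell between them. The fold change was 3.43 with 644 (log2 1.78, SE 0.12, edgeR adjusted p = 1.35e-05) and 2.75 with 878 (log2 1.46, SE 0.11, edgeR adjusted p = 4.26e-05).

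Aars, which charges alanine (gene 234734, chromosome 8, 111027778 to 111055569), was at 752, 652 and 701 CPM in knockdown644 and at 677, 791 and 657 CPM in knockdown878, against 338, 334 and 305 CPM in NC. Neither knockdown group overlapped NC, and the knockdown groups overlapped each other. Its fold change was 2.15 with 644 (log2 1.11, SE 0.10, edgeR adjusted p = 7.79e-05) and 2.17 with 878 (log2 1.12, SE 0.10, edgeR adjusted p = 7.24e-05). Sars, which charges serine and also begins the route to selenocysteine (gene 20226, chromosome 3, 108424864 to 108445259), was at 647, 534 and 599 CPM in knockdown644 and at 499.6, 618 and 466 CPM in knockdown878, against 317, 353 and 297 CPM in NC. Its lowest knockdown library was above its highest NC library. The fold change was 1.84 with 644 (log2 0.88, SE 0.13, edgeR adjusted p = 0.00104) and 1.64 with 878 (log2 0.71, SE 0.13, edgeR adjusted p = 0.00286).

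Gars, the glycine enzyme of both compartments (gene 353172, chromosome 6, 55038001 to 55079504), was at 524, 472 and 498 CPM in knockdown644 and at 457, 521 and 461 CPM in knockdown878, against 337, 332 and 315 CPM in NC. It rose 1.52-fold with 644 (log2 0.60, SE 0.08, edgeR adjusted p = 0.000713) and 1.46-fold with 878 (log2 0.55, SE 0.08, edgeR adjusted p = 0.00109), with no overlap of either group with NC. Kars, the lysine enzyme that also serves both compartments (gene 85305, chromosome 8, 111993439 to 112011354), did not pass the test with either siRNA. It was at 305, 257 and 279 CPM in knockdown644 and at 289.6, 361 and 283 CPM in knockdown878, against 322, 335 and 305 CPM in NC, and both knockdown groups overlapped NC (log2 -0.19 with 644 and -0.04 with 878, SE 0.11 each, edgeR adjusted p = 0.211 and 0.803). Kars was called lower with 644 in 4 of 20 alternative analyses. These were library sizes alone, limma on FPKM at either pseudocount and the removal of knockdown878 replicate 2.

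A further 3 cytosolic members that rose with each siRNA charge arginine, asparagine and leucine. Rars (gene 104458, chromosome 11, 35808381 to 35834528) was at 586, 512 and 576 CPM in knockdown644 and at 539.8, 579.6 and 540.2 CPM in knockdown878, against 396, 396 and 376 CPM in NC (log2 0.52 with 644, SE 0.08, edgeR adjusted p = 0.00132, and log2 0.51 with 878, SE 0.08, edgeR adjusted p = 0.00138). Nars (gene 70223, chromosome 18, 64499647 to 64516557) was at 580.5, 562 and 565 CPM in knockdown644 and at 625, 595 and 639 CPM in knockdown878, against 420.4, 396 and 398 CPM in NC (log2 0.49 with 644, SE 0.07, edgeR adjusted p = 0.000784, and log2 0.61 with 878, SE 0.07, edgeR adjusted p = 0.000236). Lars, which also takes part in leucine sensing for mTORC1 (gene 107045, chromosome 18, 42202298 to 42262125), was at 169, 175 and 182 CPM in knockdown644 and at 187, 188 and 198 CPM in knockdown878, against 135, 131 and 131 CPM in NC (log2 0.41 with 644, SE 0.06, edgeR adjusted p = 0.00157, and log2 0.53 with 878, SE 0.06, edgeR adjusted p = 0.000356). In none of these 3 genes did a knockdown library reach down to an NC library. For Lars and Nars the knockdown878 libraries all lay above the knockdown644 libraries, yet the difference between the siRNAs did not pass the test (log2 0.12 in each, SE 0.06 and 0.07, edgeR adjusted p = 0.411 and 0.45).

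Iars (isoleucine, gene 105148, chromosome 13, 49682130 to 49734267) and Yars (tyrosine, gene 107271, chromosome 4, 129189903 to 129219240) rose less. Iars was at 295, 308 and 307 CPM in knockdown644 and at 338, 282 and 351 CPM in knockdown878, against 239, 216 and 237 CPM in NC (log2 0.40 with 644, SE 0.09, edgeR adjusted p = 0.012, and log2 0.49 with 878, SE 0.09, edgeR adjusted p = 0.00432). Yars was at 219, 191 and 215 CPM in knockdown644 and at 195, 239.6 and 200.5 CPM in knockdown878, against 165, 168 and 162 CPM in NC (log2 0.33 with 644, SE 0.09, edgeR adjusted p = 0.0268, and log2 0.36 with 878, SE 0.09, edgeR adjusted p = 0.0197). Neither gene's groups overlapped NC. Iars lost its call with 644 without NC replicate 2, with library sizes alone and with limma on FPKM at either pseudocount. Yars lost its call with each siRNA without NC replicate 1 or NC replicate 3 and with replicate number as a block, and with 644 also without knockdown644 replicate 1 or 3.

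**Figure D1:**
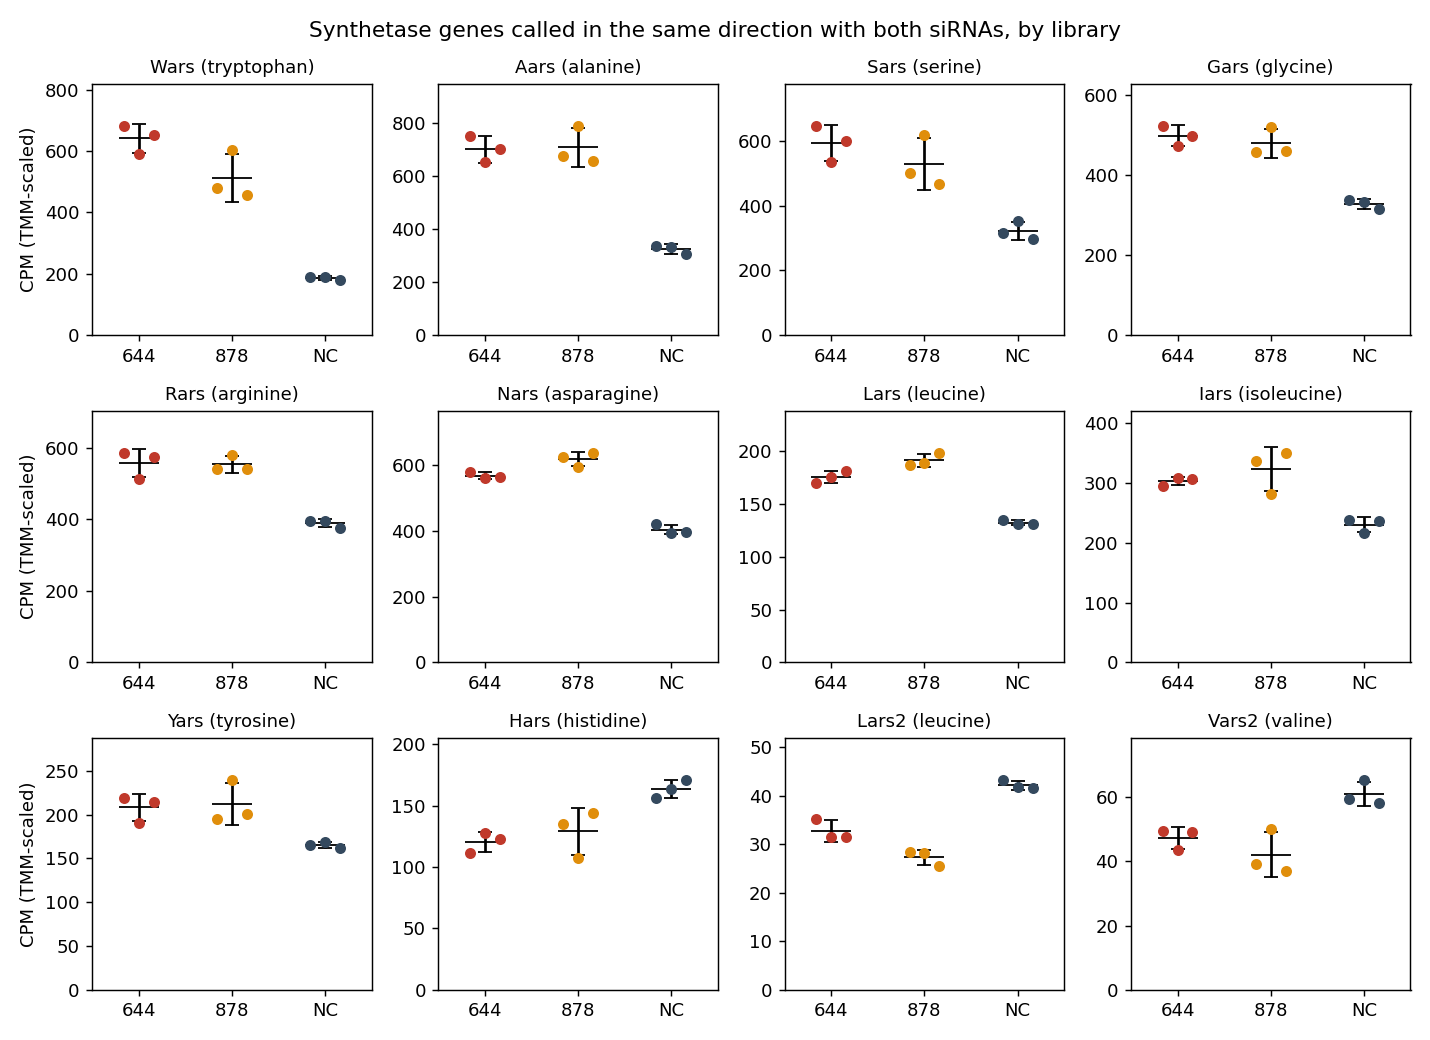
Each panel plots the 12 members called in the same direction with both siRNAs, with CPM (TMM-scaled estimated counts) on the vertical axis from 0 and the groups knockdown644 (644), knockdown878 (878) and NC on the horizontal axis. Points are libraries, the long dash is the mean and the bar is the SD (n = 3). In the 9 genes from Wars to Yars the points of both knockdown groups sit above NC, and in Hars, Lars2 and Vars2 they sit below it.

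Qars and Tars were called higher with 878 and not with 644 in the main analysis. Qars, the glutamine enzyme of the multisynthetase complex (gene 97541, chromosome 9, 108508005 to 108515941), was at 281, 242 and 280.5 CPM in knockdown644 and at 318, 390 and 310.3 CPM in knockdown878, against 231, 251 and 230.4 CPM in NC. Its knockdown878 libraries were all above NC (log2 0.51, SE 0.11, edgeR adjusted p = 0.00649), while knockdown644 overlapped NC (log2 0.17, SE 0.11, edgeR adjusted p = 0.245), and the difference of 0.34 between the siRNAs missed the threshold (SE 0.11, edgeR adjusted p = 0.164). Tars, which charges threonine (gene 110960, chromosome 15, 11383663 to 11399658), was at 259, 248 and 260.4 CPM in knockdown644 and at 288, 277 and 287 CPM in knockdown878, against 242, 228 and 225 CPM in NC. Neither group of libraries overlapped NC, with log2 fold changes of 0.14 (SE 0.06, edgeR adjusted p = 0.116) with 644 and 0.29 (SE 0.06, edgeR adjusted p = 0.00799) with 878, and the difference between the siRNAs again missed the threshold (0.15, edgeR adjusted p = 0.311). The Tars call with 878 was lost in 3 of 20 alternatives, with library sizes alone and with limma on FPKM at either pseudocount (adjusted p up to 0.0581). With 644, Tars was called higher in 3 of 20 alternatives. These were DESeq2 and offsets for GC content and length without and with the replicate block. There 18.6%, 22.5% and 20.4% of all tested genes were higher.

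Of the cytosolic members, 2 were called lower, Hars with each siRNA and Mars1 with 878. Hars, the histidine enzyme (gene 15115, chromosome 18, 36766528 to 36783205), was at 111, 128 and 123 CPM in knockdown644 and at 136, 108 and 144 CPM in knockdown878, against 156, 164 and 171 CPM in NC. All knockdown libraries lay below NC, and Hars fell by 0.44 (log2) with 644 (SE 0.11, edgeR adjusted p = 0.0164) and by 0.34 with 878 (SE 0.11, edgeR adjusted p = 0.0449). This second call was lost in 15 of 20 alternative analyses, among them each removal of a library other than knockdown878 replicates 2 and 3, and the call with 644 was lost without knockdown644 replicate 1 or 3 or NC replicate 2 or 3. Hars2, its mitochondrial partner, was at 16.5 ± 1.15 CPM in knockdown644 and 16.7 ± 1.58 in knockdown878, against 16.6 ± 0.60 in NC (SD, n = 3 each). The lowest coordinate of Hars2 in the table lies 4 bases above the highest coordinate of Hars. These are chromosome positions without regard to strand, so they do not say which ends of the genes face each other.

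Mars1, which charges methionine, including the initiator tRNA (gene 216443, chromosome 10, 127296221 to 127311786), was at 147, 117 and 137 CPM in knockdown644 and at 109, 147 and 101 CPM in knockdown878, against 164, 169.6 and 152 CPM in NC. It fell by 0.44 with 878 (SE 0.15, edgeR adjusted p = 0.0465), a call lost in 10 of 20 alternatives, which included the removal of any library but knockdown644 replicate 2 and knockdown878 replicate 2. With 644 its log2 fold change was -0.27 (SE 0.15, edgeR adjusted p = 0.184). Mars1 overlaps Ddit3 in the deposited coordinates, the gene of the stress-induced factor CHOP. Ddit3 was at 299.9 ± 46.2 CPM in knockdown644 and 247 ± 76.2 in knockdown878, against 18.8 ± 2.99 in NC (SD, n = 3 each), and whether reads were shared between these genes was not tested. In all, 10 members overlap another gene in these coordinates. Among them are Wars (with Wdr25), Aars (with Ddx19b), Hars (with Dnd1) and Iars2 (with Rab3gap2). Sharing of reads was not tested for these either.

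The 6 cytosolic members called with neither siRNA were Kars, Dars, Vars, Cars, Farsa and Farsb. Vars, the valine enzyme, was among the more abundant members, at 438 ± 31.2 CPM in knockdown644 and 404 ± 83.8 in knockdown878, against 523 ± 16.5 in NC (SD, n = 3 each), with log2 fold changes of -0.26 with 644 and -0.37 with 878 (SE 0.14 each, edgeR adjusted p = 0.178 and 0.0647). All its knockdown libraries lay below NC. Vars was called lower in 7 of 20 alternatives with each siRNA. For both siRNAs these included library sizes alone, limma on FPKM at either pseudocount and the removal of knockdown878 replicate 2. They also included offsets for GC content and length, where 22.7% of all genes were lower with 644 and 22.9% with 878. Dars (aspartate) had log2 fold changes of -0.29 with 644 and -0.28 with 878, and Cars (cysteine) of 0.23 with 644 and 0.26 with 878. Every knockdown library lay below NC for Dars and above NC for Cars. Farsa and Farsb encode the subunits of the cytosolic phenylalanine enzyme and had log2 fold changes of 0.01 and 0.05 with 644 and 0.06 and 0.11 with 878 (SE 0.07 to 0.13).

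**Figure D2:**
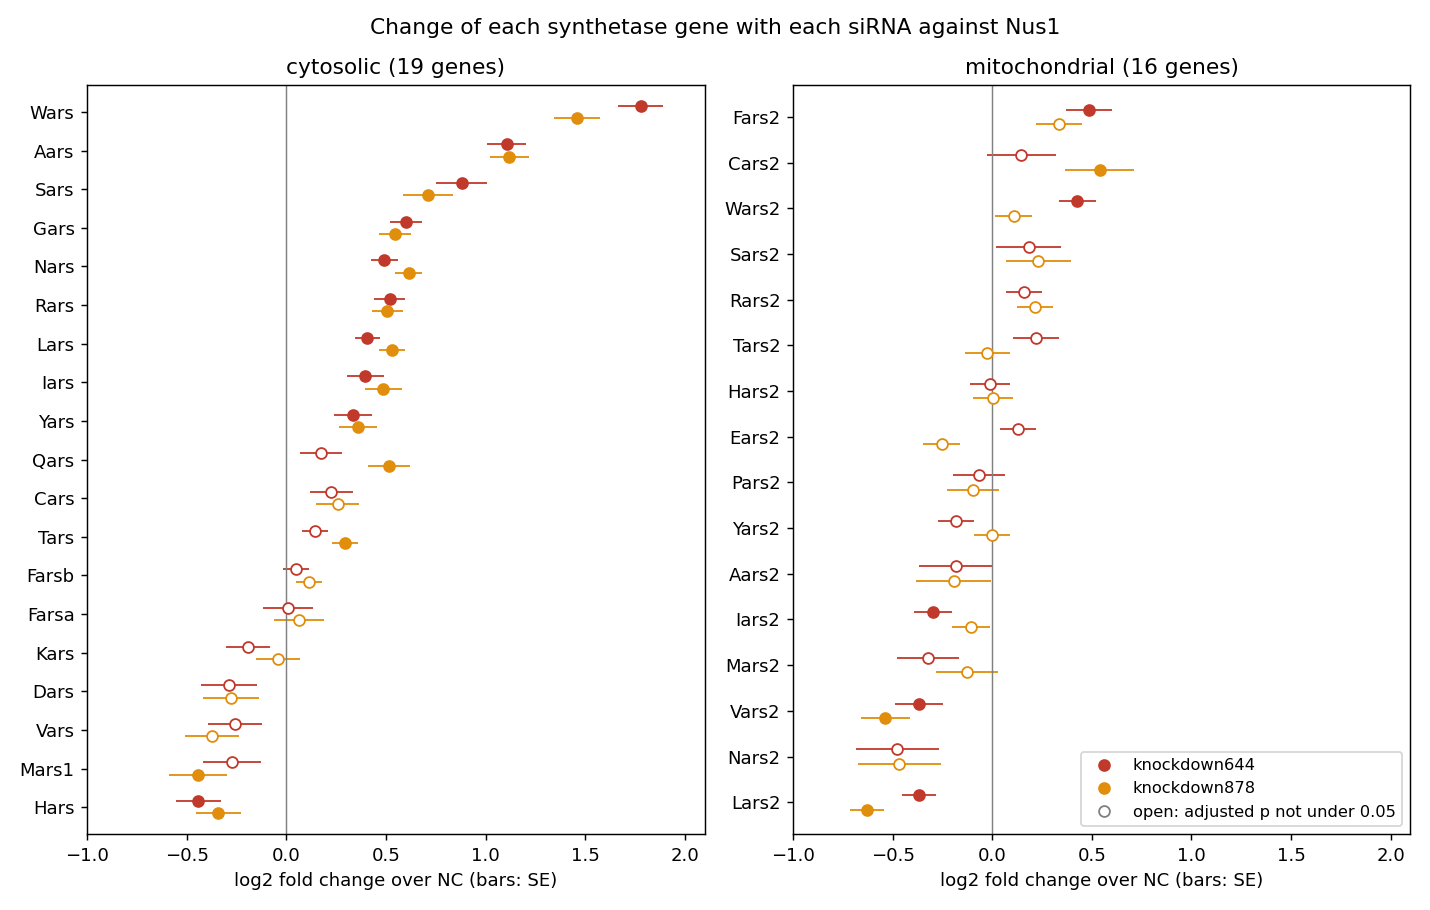
Log2 fold change over NC (horizontal axis, bars give the SE) of the 19 cytosolic genes (left) and 16 of the 17 mitochondrial genes (right), with knockdown644 in red above knockdown878 in orange. Filled points are called, open points are not. On the left, points run from 1.78 (Wars, 644) to -0.44 (Hars, 644 and Mars1, 878), with 14 of 19 genes above 0 for each siRNA. On the right, they lie between -0.63 (Lars2, 878) and 0.54 (Cars2, 878), with 7 above 0 for each siRNA.

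The risers came from inside and outside the multisynthetase complex. The counts below stand beside 16.6% of all tested genes called higher and 15% lower with 644, and 16% and 15.5% with 878. Of the 7 complex members, 3 were called higher and none lower with 644 (median log2 fold change 0.17), and 4 were called higher and 1 lower with 878 (median 0.49). Of the 12 cytosolic members outside it, 6 were called higher and 1 lower with 644 (median 0.28), and 7 higher and 1 lower with 878 (median 0.33). Synthetases also fall into structural class I and class II by the fold of their catalytic domain. Of 9 cytosolic class I genes 5 rose and none fell with 644, and 6 rose and 1 fell with 878, and of 10 class II genes 4 rose and 1 fell with 644, and 5 rose and 1 fell with 878. The 4 largest risers with 644 included a class I gene (Wars) and 3 class II genes (Aars, Sars and Gars).

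Levels of different genes can be compared only per length, for which the FPKM values of the authors were used (fragments scaled to gene length and library total). Among cytosolic members NC levels ran from 192 ± 5.34 FPKM in Rars to 35.2 ± 1.13 in Lars (SD, n = 3), and among mitochondrial members from 53.6 ± 4.03 in Iars2 to 3.85 ± 0.30 in Ears2. Neighbours in this order often did not differ beyond their spread: Kars at 163 ± 5.55 FPKM and Nars at 160.2 ± 7.57 in NC are an example. Wars moved most in the order, to rank 2 of 19 in knockdown644 (234 ± 8.81 FPKM) and rank 5 in knockdown878 (183 ± 13.8), against rank 15 in NC (70.1 ± 1.69). Kars moved the other way, to ranks 7 and 6, against rank 2 in NC, while Rars was at rank 1 in all 3 groups. Summed over the 19 cytosolic genes, FPKM was 2379, 2314 and 2360 in knockdown644 and 2311, 2282 and 2330 in knockdown878, against 1892, 1846 and 1821 in NC, with no overlap. Summed over the 17 mitochondrial genes, FPKM was 256, 245 and 244 in knockdown644 and 242, 244 and 245 in knockdown878, against 264, 262 and 257 in NC. On this FPKM scale every NC library was slightly higher, but on TMM-scaled CPM the mitochondrial sums overlapped, at 719, 648 and 665 in knockdown644 and 659, 708 and 650.0 in knockdown878, against 717, 719 and 704 in NC.

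Among mitochondrial members, Lars2 and Vars2 went down with both siRNAs. Lars2, the leucine enzyme (gene 102436, chromosome 9, 123366927 to 123462675), was at 35.3, 31.5 and 31.4 CPM in knockdown644 and at 28.3, 28.1 and 25.5 CPM in knockdown878, against 43.2, 41.7 and 41.6 CPM in NC. The 3 groups did not overlap, and Lars2 fell by 0.37 with 644 (SE 0.08, edgeR adjusted p = 0.0109) and by 0.63 with 878 (SE 0.09, edgeR adjusted p = 0.000704), with a difference of -0.26 between 878 and 644 that missed the threshold (edgeR adjusted p = 0.178). Its call with 644 was lost without knockdown644 replicate 3 or NC replicate 1. Vars2, the valine enzyme (gene 68915, chromosome 17, 35651828 to 35667639), was at 49.4, 43.4 and 49 CPM in knockdown644 and at 39.2, 50 and 36.9 CPM in knockdown878, against 59.4, 65.4 and 58.3 CPM in NC. It fell by 0.37 with 644 (SE 0.12, edgeR adjusted p = 0.0479), a call lost in 10 of 20 alternatives that included the removal of any library but knockdown878 replicates 2 and 3, and by 0.54 with 878 (SE 0.12, edgeR adjusted p = 0.0101), a call kept in all 20.

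The other mitochondrial calls were made for 1 siRNA each in the main analysis. Iars2, the isoleucine enzyme (gene 381314, chromosome 1, 185286642 to 185329419), was at 161, 148 and 139 CPM in knockdown644 and at 179, 151 and 182 CPM in knockdown878, against 192, 172 and 187 CPM in NC, and fell by 0.30 with 644 (SE 0.10, edgeR adjusted p = 0.044) but not detectably with 878 (-0.11, SE 0.10, edgeR adjusted p = 0.435). Its call with 644 was lost in 14 of 20 alternatives, including the removal of any library except knockdown878 replicates 2 and 3. Fars2, the single-chain mitochondrial phenylalanine enzyme (gene 69955, chromosome 13, 36117428 to 36537595), was at 34.3, 29.5 and 30.8 CPM in knockdown644 and at 26.6, 32.7 and 25.8 CPM in knockdown878, against 21.7, 23.8 and 21.9 CPM in NC. All its knockdown libraries were above NC, with log2 fold changes of 0.49 (SE 0.11, edgeR adjusted p = 0.0118) with 644 and 0.34 (SE 0.11, edgeR adjusted p = 0.0532) with 878. Its call with 644 was lost without knockdown644 replicate 1 or NC replicate 1. With 878, Fars2 was called higher in 8 of 20 alternatives, among them DESeq2 and RLE normalization. The difference between 878 and 644 was -0.15 (edgeR adjusted p = 0.624).

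Wars2, the mitochondrial tryptophan enzyme (gene 70560, chromosome 3, 99140107 to 99221230), was at 27.4, 30.3 and 26.4 CPM in knockdown644 and at 21.5, 21.6 and 24.3 CPM in knockdown878, against 20.4, 20.6 and 21.5 CPM in NC. It rose with 644 (log2 0.43, SE 0.09, edgeR adjusted p = 0.00849) and was not called with 878 (0.11, SE 0.09, edgeR adjusted p = 0.424), and this gap of -0.32 between 878 and 644 missed the threshold (edgeR adjusted p = 0.138). The Wars2 call with 644 was lost with limma on FPKM at either pseudocount (adjusted p up to 0.0839). Cars2 (cysteine, gene 71941, chromosome 8, 11514017 to 11550781) was at 28.6, 21.9 and 24.9 CPM in knockdown644 and at 28.1, 42.6 and 28.4 CPM in knockdown878, against 23, 24 and 21.2 CPM in NC. Replicate 2 of knockdown878 was far above its group, and the call with 878 (log2 0.54, SE 0.17, edgeR adjusted p = 0.0431) was lost in 8 of 20 alternatives, among them the removal of any NC library or of knockdown644 replicate 1 or 3. The remaining 11 mitochondrial members, among them Aars2, Ears2, Hars2, Mars2, Nars2, Pars2, Rars2, Sars2, Tars2 and Yars2, were called with neither siRNA, with log2 fold changes of -0.48 (Nars2) to 0.22 (Tars2) with 644 and -0.47 (Nars2) to 0.23 (Sars2) with 878. With GC and length offsets, Aars2 was called lower and Rars2 higher with each siRNA, and Nars2 lower with 878. In that fit 22.5% of all genes were higher and 22.7% lower with 644, and 23.2% and 22.9% with 878. Nars2 was at 9.74 ± 1.39 CPM in knockdown644 and 9.79 ± 2.66 in knockdown878, against 13.6 ± 1.82 in NC (SD, n = 3 each, edgeR adjusted p = 0.113 and 0.121).

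Of 15 amino acids with both a cytosolic and a mitochondrial gene in the set, 16 pairs can be formed, since phenylalanine has a pair of cytosolic subunits. The cytosolic gene had the larger log2 fold change in 11 pairs with 644 and in 10 with 878. The ratio of cytosolic to mitochondrial FPKM, which compares mRNA levels per length, was 38.9 ± 4.61 in knockdown644 and 38.5 ± 7.20 in knockdown878, against 14.4 ± 0.44 in NC (SD, n = 3 each) for Wars over Wars2. For Aars over Aars2 it was 23.1 ± 1.86 in knockdown644 and 23.6 ± 4.51 in knockdown878, against 9.40 ± 0.48 in NC. For leucine, where the cytosolic gene rose and the mitochondrial gene fell, Lars over Lars2 was 5.38 ± 0.51 in knockdown644 and 7.04 ± 0.64 in knockdown878, against 3.14 ± 0.02 in NC. Isoleucine was the pair nearest to equal: Iars over Iars2 was 1.66 ± 0.16 in knockdown644 and 1.54 ± 0.03 in knockdown878, against 1.02 ± 0.01 in NC. The histidine and phenylalanine ratios were lower with the siRNAs, with Hars over Hars2 at 9.30 ± 1.30 in knockdown644 and 10.2 ± 2.4 in knockdown878, against 13.5 ± 1.40 in NC. Farsa over Fars2 was at 4.24 ± 0.19 in knockdown644 and 4.82 ± 0.17 in knockdown878, against 6.08 ± 0.13 in NC. For valine, Vars over Vars2 moved little, at 9.82 ± 0.08 in knockdown644 and 10.2 ± 0.44 in knockdown878, against 9.13 ± 0.35 in NC.

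**Figure D3:**
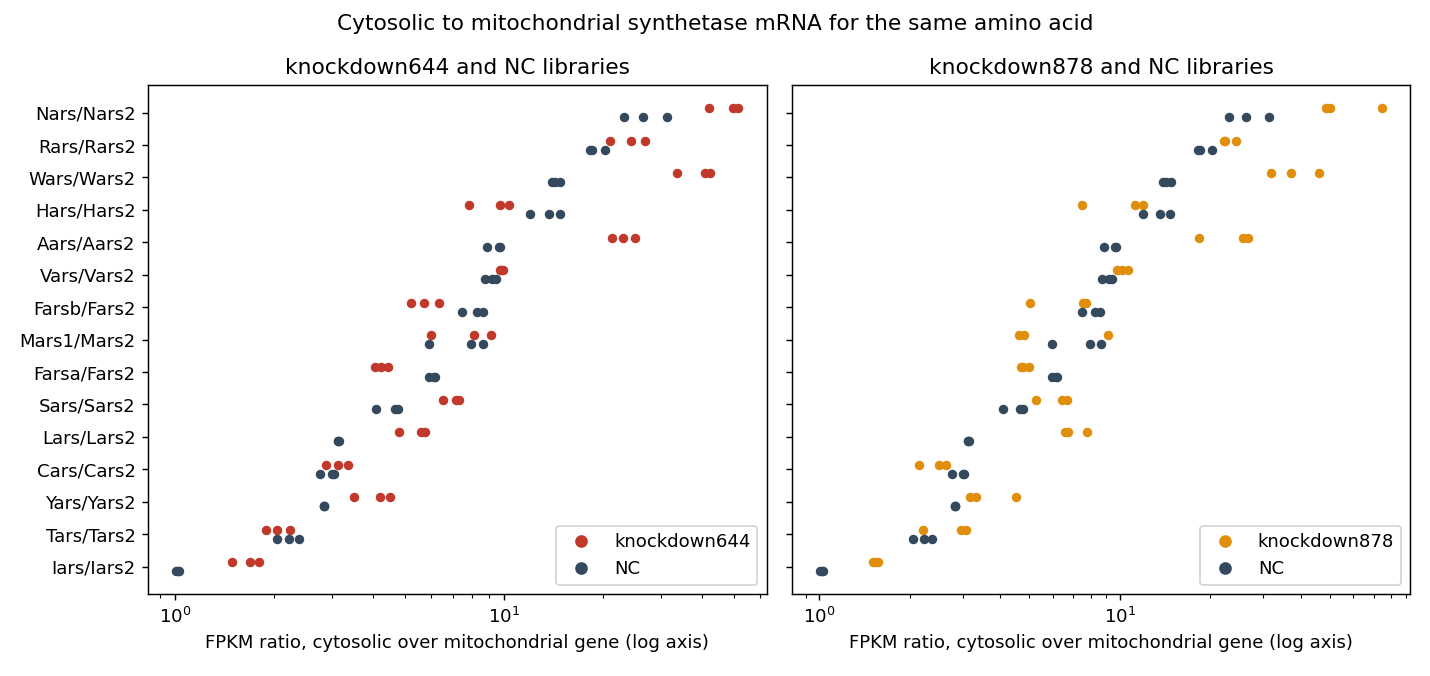
FPKM of the cytosolic gene divided by FPKM of the mitochondrial gene for the same amino acid (log axis) in each library, for 15 of the 16 pairs ordered by the NC mean, with knockdown644 and NC on the left and knockdown878 and NC on the right, 3 points a group. The tryptophan, alanine, leucine, isoleucine, asparagine, serine, arginine, tyrosine and valine pairs have all knockdown points right of all NC points in both panels, and the histidine and Farsa pairs have them left in both.

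Between the siRNAs no member was called: 0 of 36 were higher and 0 lower in knockdown878 than in knockdown644, where 0.315% and 1.19% of all tested genes were. At an unadjusted p under 0.05 in edgeR's test there were 6 of the 36 members, beside 1774 of all 11739 tested genes, a similar share. DESeq2 called 2 members lower, Ears2 and Wars2, and 3.53% of all genes. Differences ran from -0.38 (Ears2, SE 0.09, edgeR adjusted p = 0.0813) to 0.39 (Cars2, SE 0.17, edgeR adjusted p = 0.331). The difference in Wars was -0.32 (SE 0.11, edgeR adjusted p = 0.208), and it was called in 6 of 20 alternatives, over which its adjusted p ranged from 0.00779 to 0.513. It was called without knockdown878 replicate 2 (-0.44, edgeR adjusted p = 0.00779), where 1 member was called higher (Iars2) and 6 lower (Wars, Vars, Vars2, Mars1, Ears2 and Tars2), against 8.22% of all tested genes higher and 9.26% lower in the same analysis.

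Genes that work beside the synthetases were read from lists that are described here by counts and medians. Over all tested genes, 16.6% were called higher and 15% lower with 644, and 16% and 15.5% with 878. Of 13 other genes of cytosolic tRNA charging, 4 were called higher and 2 lower with 644 (median log2 fold change 0.01), and 3 higher and 2 lower with 878 (median 0.09). Eprs, the fused glutamate and proline enzyme of the complex, rose with both, at 467 ± 6.83 CPM in knockdown644 and 456 ± 42.3 in knockdown878, against 373 ± 19.2 in NC (SD, n = 3 each, log2 0.32 with 644 and 0.29 with 878, edgeR adjusted p = 0.0187 and 0.0287). Ptrh2, a peptidyl-tRNA hydrolase, which releases peptides from tRNAs, also rose (log2 0.64 with 644 and 0.58 with 878), while Tarsl2, a second threonine enzyme, fell by 1.04 with 644 and fell by 0.81 with 878, at 1.78 ± 0.47 CPM in knockdown644 and 2.09 ± 0.49 in knockdown878, against 3.67 ± 0.72 in NC. The scaffold proteins of the complex, Aimp1, Aimp2 and Eef1e1, were not called with either siRNA.

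Of 16 further genes of mitochondrial charging and translation factors, none was called higher and 4 lower with 644 (median -0.06), and 1 was called higher and 3 lower with 878 (median -0.09). Guf1, a mitochondrial elongation factor of the LepA family, fell by 0.71 with 644 and by 0.67 with 878 (SE 0.11 each, edgeR adjusted p = 0.00122 and 0.00159). Gfm1 and Gfm2, the mitochondrial elongation and recycling G factors, fell with both siRNAs, by 0.46 and 0.25 with 644 and by 0.30 and 0.29 with 878. Of 78 mitochondrial ribosomal protein genes, 5 were called higher and 6 lower with 644 and 4 higher and 2 lower with 878 (medians 0.02 and 0.03), which are shares below those over all genes. Of 11 cytosolic elongation and termination genes, 2 were higher and 1 lower with 644 and 3 higher and none lower with 878, with Eef1b2 (log2 0.46 with 644 and 0.59 with 878) and Pelo (0.58 with 644 and 0.49 with 878) called with both. Of 36 genes for making, processing and exporting tRNA, 4 were higher and 10 lower with 644 and 8 higher and 8 lower with 878. Among these, Elac1, a tRNA 3' end nuclease, fell by 1.11 with 644 and fell by 0.63 with 878, and Tsen15, a subunit of the tRNA splicing endonuclease, rose (log2 0.62 with 644 and 0.70 with 878).

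Of 13 genes of the eIF2 kinases and ATF4, 7 were called higher and 1 lower with each siRNA (medians 0.79 and 0.68). Ddit3, whose values are given above, had log2 fold changes of 4.0 with 644 and 3.72 with 878, and Trib3, a pseudokinase induced by ATF4, of 3.24 with 644 and 3.10 with 878. Atf4 itself was at 1005 ± 104 CPM in knockdown644 and 959 ± 121 in knockdown878, against 489 ± 28.0 in NC (SD, n = 3 each, log2 1.04 with 644 and 0.97 with 878, edgeR adjusted p = 0.000246 and 0.000342). Asns, asparagine synthetase, which makes the amino acid and is no tRNA enzyme, rose (log2 0.79 with 644 and 0.61 with 878). Eif2ak2, the double-stranded RNA kinase PKR, fell by 0.80 with 644 and fell by 0.69 with 878. A list of interferon gamma genes was read because Wars is known to respond to that cytokine. Of 13 tested, none was called higher with either siRNA. Called lower were 5 with 644 and 5 with 878, of which 4 were shared (medians -0.34 and -0.30). Over all tested genes, 15% were lower with 644 and 15.5% with 878. Whether this cytokine has a part in the change of Wars was not tested. Cxcl10, a chemokine induced by interferon, was at 5.13 ± 0.39 CPM in knockdown644 and 4.66 ± 0.33 in knockdown878, against 11.2 ± 1.11 in NC (SD, n = 3 each, log2 -1.13 with 644 and -1.27 with 878, edgeR adjusted p = 0.000213 and 0.000122). Gbp3, an interferon-induced GTPase, fell by 2.36 with 644 and fell by 1.91 with 878.

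**Figure D4:**
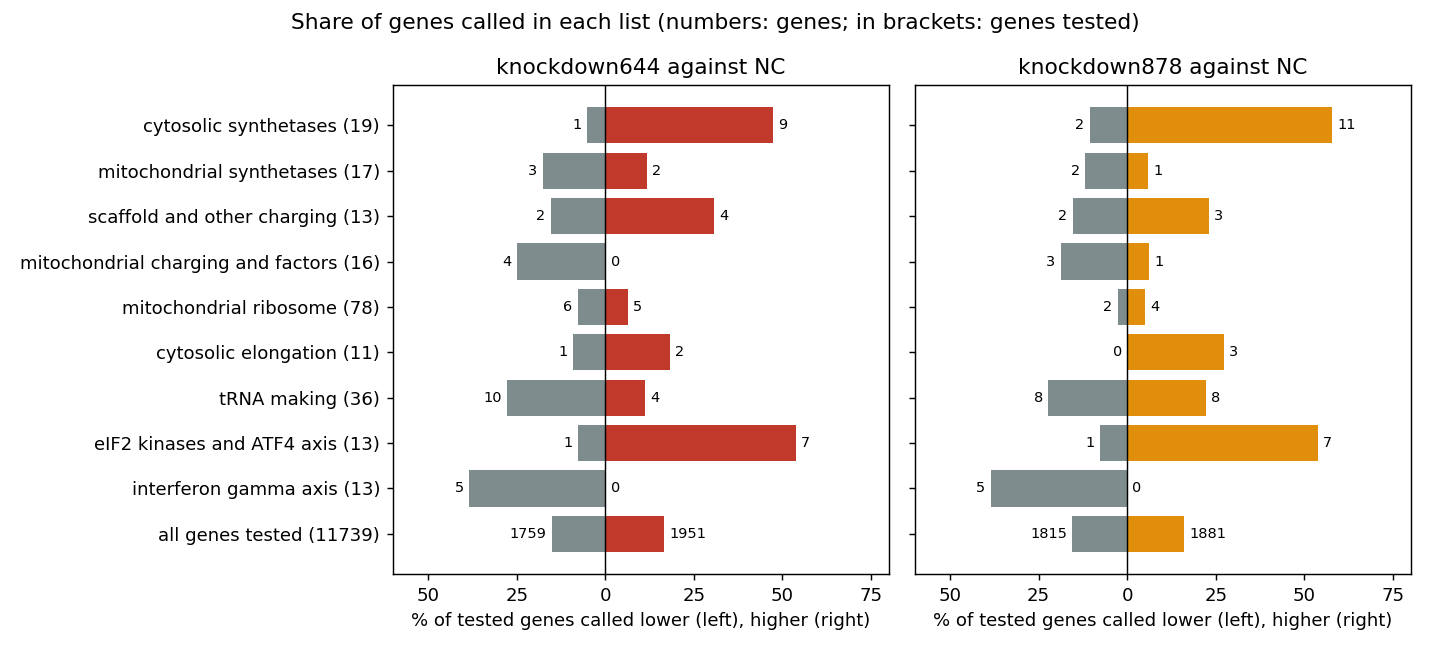
Percent of the tested genes of each list that were called lower (grey, left of 0) or higher (coloured, right of 0) with siRNA 644 (left) and siRNA 878 (right), with the number of genes at each bar and the genes tested in brackets. The cytosolic synthetases (9 and 11 of 19 higher) and the eIF2 kinase and ATF4 genes (7 of 13 with each siRNA) have the longest bars to the right, and the bottom row gives all 11739 genes.

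The 3 members with a 9-letter response element in the promoter window, among them Gars and Iars, were called higher with each siRNA. Of all tested genes 12.2% were. How many of the 53 tested genes with this longer word were called is not given here. Whether the word has a part in the changes was not tested. The shorter word adds Yars, called higher with each, and Tars, called higher with 878. Sars, called higher with each siRNA, and Qars, Cars2, Fars2 and Wars2, called higher with 1 siRNA, had no match in the window. The promoters of Wars, Rars, Nars and Lars were not analysed here.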

How the data were processed

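The deposited table gave, for 9 libraries, estimated counts per gene, not rounded by the authors (37.4% of nonzero values were not whole within 1e-09), and the authors' FPKM. The authors' own log2 fold changes and q-values in the deposited table were not used, nor were 9 columns of TPM, 9 of averages and 3 of p-values (21 columns with no use in any step). The submitters' processing notes list the build mm39, DESeq2 1.34.0 and Bowtie2 2.4.5. The sources used here do not give the counter, strand setting, annotation or FPKM lengths, so overlapping genes carry that uncertainty. Of 16347 genes matched by ID, 73.7% have their RefSeq GRCm38.p6 position (23 of 36 members), so gene positions are those of the table, of open build. No gene lies on the mitochondrial chromosome.

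Counts were rounded and tested with edgeR 4.0.16 in R 4.3.3 (filterByExpr, minimum count 10 and total 15; TMM factors 0.898 to 1.04; quasi-likelihood F-test on 1 fit of all 9 libraries by group; Benjamini-Hochberg over 11739 genes; called under 0.05). The biological coefficient of variation was 14.9%. The SE is the size of the log2 fold change over the root of F. The test was checked on simulated data. It recovered 40.4% of simulated 1.5-fold changes with 644 and 37.7% with 878, and 94.4% and 88.3% of 2-fold changes. The simulation changed far fewer genes than were called here: with 644, 57 by 1.5-fold, 72 by 2-fold and 71 by 4-fold. In the data 1951 genes were called higher and 1759 lower with 644. Simulated counts also carried no dependence on length or GC content. The recovery may therefore differ in these data. A gene that is not called may still have changed, and some simulated 2-fold changes were missed too. The alternatives comprised RLE normalization, no normalization beyond library size, DESeq2 1.42.0, no count filter or at least 1 CPM in 3 samples, fits of the compared groups alone, replicate number as a block, limma 3.58.1 on log2(FPKM + 1) and log2(FPKM + 0.1), each library left out and, chosen after seeing the data, GC and length offsets from GENCODE transcripts of GRCm38 without and with the block (20 in all).

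The members and the gene lists were chosen with earlier results of these data known. Values per library are given for members called with both siRNAs, called against the direction of most, or called with 1 siRNA (up to 4 by smallest adjusted p), and for Gars, Kars and Wars; Cars2 was added after its values were seen. A few values are left out and not reported here. Of each list, up to 4 called genes are named. Promoter sequences are from RefSeq, GRCm38.p6.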

Additional observations from a re-analysis of the deposited data

How the results depend on the processing

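With the main analysis 11 members were higher and 4 lower with 644, 12 higher and 4 lower with 878, 0 higher and 0 lower in 878 against 644, and 12 called in the same direction with both. Counts of higher calls stayed within 1.5 times of these under every alternative run (9 to 13 with 644, 10 to 15 with 878), and those called with both ranged from 8 to 17. In these runs 10.7% to 25.3% of all tested genes were called higher with 644 and 10.6% to 23.2% with 878. Lower calls with 644 numbered 2 with no count filter, 8 with only the 2 groups compared, 2 with the replicate block and 7 with limma at either pseudocount, and 0 to 10 with each library left out. Lower calls with 878 numbered 2 with no count filter, 2 with only the 2 groups compared, 2 with the replicate block, and 2 to 7 with each library left out. The shares over all tested genes were, in that order, 9.99%, 11.4%, 11.9% and 10.0% to 20.3%, against 15.5% in the main analysis. In 878 against 644, higher calls numbered 1 with limma at either pseudocount and 1 with GC and length offsets, and 0 to 1 with each library left out. Over all tested genes the higher shares were 0.579% and 0.528% with limma, 4.22% with the offsets and 0.0169% to 8.22% with each library left out. Lower calls in 878 against 644 numbered 2 with DESeq2, 1 with library sizes alone, 1 with limma at either pseudocount, 4 with GC and length offsets, 1 with those offsets and the replicate block, and 0 to 6 with each library left out. The lower shares over all tested genes were, in that order, 3.53%, 2.1%, 2.57% and 2.22%, 5.55%, 2.58%, and 0.0843% to 9.26%. The cause was not tested. Of the single-member values, 1997 kept their direction and side of the threshold, 82 lost and 81 gained a call, and none with a call changed direction. Deviations of same-numbered libraries from their group means had correlations of -0.686 to 0.548 across genes, with no steady direction. Whether the numbers pair the samples cannot be told from this, since the libraries also differed in their dependence on length and GC content. With the replicate block 10 members were higher with 644 and 10 with 878, not all of them the same, beside 13.3% and 12.7% of all tested genes. Called in the same direction with both were then 9, of which Lars2 was lower. Of the calls held in all 20 alternatives, 7 were with 644 (Wars, Aars, Sars, Gars, Rars, Nars and Lars) and 11 with 878 (those with Iars, Qars, Lars2 and Vars2). Ears2, Nars2 and Pars2 had as few as 198, 121 and 189 counts in a library, which limits the precision of their fold changes.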
